A study of Homo sapiens with 6 samples.

Results

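Of the 58336 genes counted, 10 genes of sterol sensing and cholesterol handling were followed in 12Z, a human cell line of endometriotic epithelium. They were NR1H2 and NR1H3, which encode the liver X receptors LXRβ and LXRα; ABCA1, ABCG1, MYLIP, LPCAT3 and SMPDL3A, known targets of these receptors; NPC1 and NPC2, which take cholesterol out of the lysosome; and SOAT1, which esterifies it for storage. They were chosen by name for these roles, with earlier results of these data known. The 3 siBRG1 libraries came from cells transfected with siRNA against SMARCA4, which encodes BRG1, an ATPase of SWI/SNF chromatin remodelling complexes, and the 3 control libraries from cells given a non-targeting siRNA. Per the labels, the siRNA dose was 50 nM, serum was lowered from 10% to 0.5% at 48 h, and RNA was taken at 72 h, in both groups. The protocol text also speaks of a drug or a vehicle, which no label ties to either group. All libraries come from 1 cell line, and the control libraries are labelled as reanalysed from an earlier deposit, so deposit and siRNA cannot be told apart for any gene below.

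Liver X receptors are nuclear receptors that pair with retinoid X receptors and are activated by oxysterols, oxidised forms of cholesterol that build up when sterol is plentiful. Their targets move cholesterol out of the cell (ABCA1, ABCG1), limit lipoprotein uptake (MYLIP) and change membrane phospholipids (LPCAT3). The opposing arm, run by SREBP2 (gene SREBF2), is active when sterol is scarce and raises cholesterol synthesis and uptake.

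Levels are in CPM, read counts scaled to a common TMM-normalised library total, and fold changes are siBRG1 over control from edgeR's quasi-likelihood test across all genes, with Benjamini-Hochberg adjusted p-values and a call at adjusted p under 0.05. Total gene counts were 12391161 to 13369692 per siBRG1 library and 40228678 to 49720320 per control library, so that 3 counts stood for 0.236 ± 0.00974 CPM in siBRG1 and 0.0690 ± 0.00761 CPM in control (SD, n = 3 each). SMARCA4 itself stood at 60.4, 78.8 and 50.5 CPM in the siBRG1 libraries, against 244, 266 and 262 CPM in the control libraries, a 4.07-fold fall. Reads mapped to several places made up 18.5% to 21.5% of reads in siBRG1 and 9.57% to 10.0% in control, and reads in no gene feature 3.85% to 4.20% and 12.8% to 13.6% of reads in siBRG1 and in control. The part of these differences in the results below was not tested. Of the defining epithelial markers, the keratin KRT8 was abundant, at 1610.4 to 1702 CPM in siBRG1 and 1544 to 1569 CPM in control, while CDH1 (E-cadherin) was scarce, at 4.37 to 6.97 CPM in siBRG1 and 2.50 to 3.60 CPM in control. The keratins KRT7 and KRT19 fell: KRT7 averaged 36.9 ± 4.49 CPM in siBRG1 and 196 ± 9.09 CPM in control, 5.29-fold lower, and KRT19 averaged 608 ± 14.4 CPM in siBRG1 and 882 ± 20.4 CPM in control, 1.45-fold lower (SD, n = 3 each). KRT8 and CDH1 were called higher, by 1.06-fold and 1.90-fold, as were CLDN4 and EPCAM, both scarce. KRT18 and MUC1 did not pass, so the epithelial markers did not move together. The labels do not say whether the 3 libraries of a group were grown apart; p-values therefore speak of the spread among libraries, some or all of which may be technical.

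Of the 10 genes, 9 passed the filter on low counts, and ABCG1 did not. All 9 were called, 7 as higher and 2 as lower in siBRG1. Among all 15830 genes tested, 72.6% were called, 36.1% as higher and 36.5% as lower, so a call by itself sets these genes little apart. The CPM of the groups stood apart without overlap for each of the 9, as for 74.3% of all genes tested. A called difference of at least 2-fold was found for NR1H3, ABCA1 and SOAT1, and for 21.6% of all genes tested (10.4% higher and 11.1% lower). The median log2 fold change of the 9 was 0.63, beside −0.01 over all genes tested, a value that TMM scaling tends to hold near 0. Since the genes were chosen with earlier results of these data known, the gap between these medians was not tested. The receptors and the lysosomal exporters were higher in siBRG1, whereas the sterol efflux pump ABCA1 and the esterifying enzyme SOAT1 were lower.

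**Figure D1:**
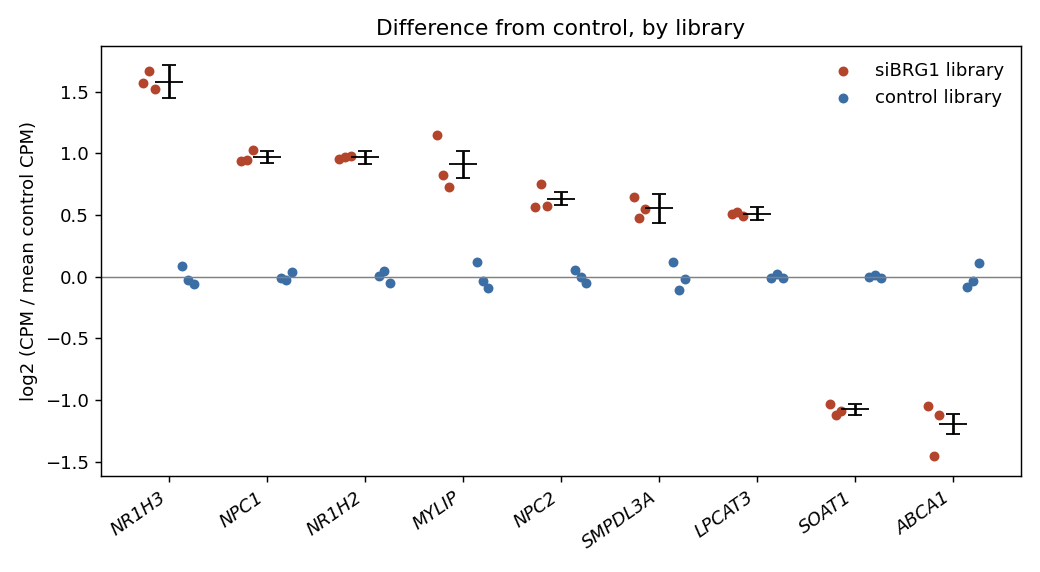
Each point is the log2 of a library's CPM over the mean control CPM, for the 9 genes tested, with siBRG1 libraries at the left and control libraries at the right of each gene; black bars are the fitted log2 fold change ± SE. All siBRG1 points lie above all control points for 7 genes, from NR1H3 (1.58) to LPCAT3 (0.51), and below them for SOAT1 (−1.08) and ABCA1 (−1.20).

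The receptors rose together, the scarcer of them by the larger fold. NR1H3, the LXRα gene (ENSG00000025434.18, chromosome 11, 47248300 to 47269032 on GRCh38), stood at 11.1, 11.9 and 10.7 CPM in the siBRG1 libraries, against 3.97, 3.67 and 3.60 CPM in the control libraries. Every siBRG1 library was above every control library, and the log2 fold change was 1.58 ± 0.130 SE at an adjusted p of 9.70e-12. NR1H2, the LXRβ gene, which most tissues express (ENSG00000131408.13, chromosome 19, 50329653 to 50382982), stood at 77.7, 78.4 and 78.6 CPM in the siBRG1 libraries, against 40.1, 41.4 and 38.5 CPM in the control libraries. The siBRG1 libraries were nearly equal and all far above the control libraries; the log2 fold change was 0.97 ± 0.0526 SE at an adjusted p of 9.12e-16.

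Per kilobase of exon, NR1H3 had 2.48 ± 0.131 CPM per kb in siBRG1 and 0.826 ± 0.0433 CPM per kb in control, and NR1H2 20.8 ± 0.129 and 10.7 ± 0.383 CPM per kb (siBRG1, then control; SD, n = 3). NR1H2 thus remained the more abundant receptor transcript in both groups. The ratio of NR1H3 to NR1H2 counts, which does not depend on how libraries are scaled, was 0.143, 0.152 and 0.137 in siBRG1 libraries, against 0.0990, 0.0887 and 0.0936 in control libraries. It was 1.54-fold higher in siBRG1 without overlap, with p = 0.1 in a two-sided exact permutation test, which cannot go lower with 3 libraries in each group.

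**Figure D2:**
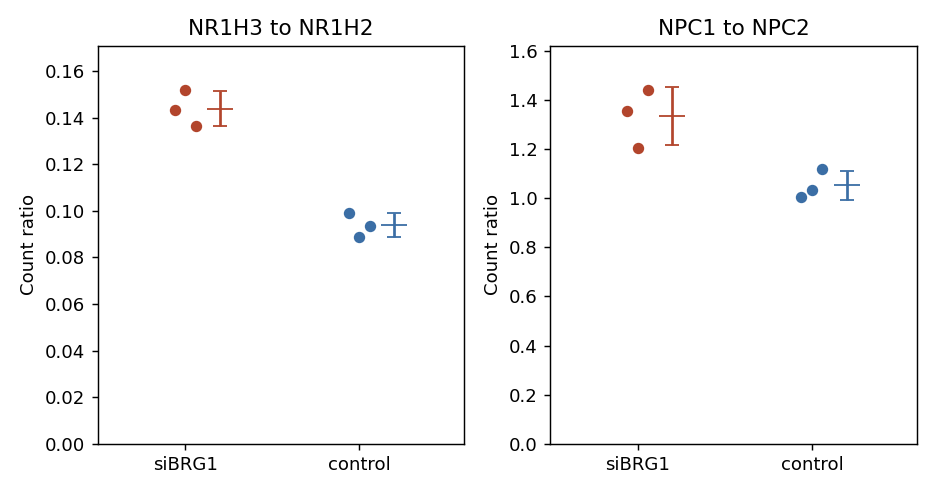
Ratio of raw counts within each library, for NR1H3 to NR1H2 and for NPC1 to NPC2; points are libraries, bars at the side are mean ± SD (n = 3), siBRG1 at the left and control at the right. The siBRG1 ratios lie above the control ratios in both panels, 0.144 ± 0.00764 against 0.0938 ± 0.00518 for the receptors and 1.33 ± 0.119 against 1.05 ± 0.0597 for the lysosomal pair.

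NR1H3 had the largest change of the 10 genes. The genes whose log2 CPM over the 6 libraries, each centred on its own mean, lay nearest to it were LMCD1, ECH1 and FBLN2, at Euclidean distances of 0.0809, 0.0914 and 0.0963. With 2 groups of 3 libraries such nearness is largely a like difference between groups: the log2 fold changes of these genes were 1.55, 1.52 and 1.52.

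Partners and coregulators of the receptors were more often lower than higher. Of 14 such genes 13 were tested, of which 2 rose, 7 fell and 4 did not pass, with a median log2 fold change of −0.19. Thus 69.2% were called, near the 72.6% of all genes tested, where 36.1% were called higher and 36.5% lower. RXRA, the gene of a main retinoid X receptor, stood at 23.4, 24.7 and 22.8 CPM in siBRG1 libraries, against 24.0, 27.4 and 25.6 CPM in control libraries, and did not pass (log2 fold change −0.12 ± 0.0767 SE at an adjusted p of 0.167). After removal of trends in GC content and length its value was −0.29 (adjusted p = 0.000755). RXRB rose (log2 fold change 0.38 ± 0.0833 SE at an adjusted p of 0.000225), but after that removal it stood at 0.07 (adjusted p = 0.411). HDAC3, a histone deacetylase of the corepressor complex named here because the count was 2, was the other that rose.

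The largest fall was in a subunit of the corepressor complex that silences unliganded nuclear receptors. TBL1XR1, that subunit, had 121 ± 10.7 CPM in siBRG1 and 275 ± 4.24 CPM in control (SD, n = 3 each; log2 fold change −1.19 ± 0.0468 SE at an adjusted p of 5.78e-19). GPS2, another subunit, was scarce, at 2.11 ± 0.268 CPM in siBRG1 and 3.10 ± 0.129 CPM in control (log2 fold change −0.55, adjusted p = 0.0199). Its call was lost with unstranded counts (log2 fold change −0.05, adjusted p = 0.888), with control counts thinned (adjusted p = 0.161) and when siBRG1 replicate 3 or control replicate 2 was left out (adjusted p = 0.0668 and 0.0505).

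Known targets of the receptors went both ways, and the efflux pump fell. ABCA1, which loads cellular cholesterol and phospholipid onto apolipoprotein A-I (ENSG00000165029.15, chromosome 9, 104781002 to 104928237), stood at 24.7, 18.7 and 23.6 CPM in the siBRG1 libraries, against 48.4, 50.1 and 55.6 CPM in the control libraries. Even the highest siBRG1 library lay far below the lowest control library, and siBRG1 replicate 2 was the lowest of all. The log2 fold change was −1.20 ± 0.0795 SE at an adjusted p of 8.43e-14, a 2.29-fold fall. ABCG1, which moves cholesterol to HDL particles (ENSG00000160179.18, chromosome 21, 42199689 to 42297244), was near the limit of detection in both groups, with 1, 4 and 2 counts in the siBRG1 libraries and 14, 12 and 4 counts in the control libraries. Its CPM overlapped between groups, 0.0728 to 0.313 in siBRG1 and 0.0994 to 0.306 in control, and with no filter it was not called (log2 fold change −0.42 ± 0.778 SE at an adjusted p of 0.665). A difference in ABCG1 was therefore not detected, and with so few counts and so wide an SE it could have been missed.

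MYLIP, which encodes the ubiquitin ligase IDOL, which limits lipoprotein uptake (ENSG00000007944.14, chromosome 6, 16129125 to 16148248), stood at 19.3, 15.4 and 14.4 CPM in the siBRG1 libraries, against 9.44, 8.51 and 8.17 CPM in the control libraries. The siBRG1 libraries spread more than the control libraries, with replicate 1 above the others, and still lay apart from them (log2 fold change 0.91 ± 0.111 SE at an adjusted p of 2.70e-08).

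The sequences upstream of ABCA1 and MYLIP are shown because these targets moved in opposite directions. RefSeq windows of 250 bases before a transcript start (GRCh38.p14) were found for 8 of the 10 genes, 12 windows in all. They were searched on both strands for the LXR element, the repeat of AGGTCA after a gap of any 4 bases (at most 2 mismatches in its 12 fixed letters). ABCA1 held a match with 2 mismatches, in capitals in the first line, 69 to 54 bases before the RefSeq start and inside the 5′ UTR of a longer GENCODE 29 transcript; 2.03% of 35116 windows of that length held a match, and no window of the other 7 genes did. The second line is the ABCA1 sequence further upstream with its E-box (CACGTG, found in 6.35% of windows) in capitals, and the third is the whole MYLIP window, which has no match to either motif. A match is a match of letters, and binding was not measured. Only these 250 bases were searched, so a window without a match does not show that its gene lacks an element elsewhere.
ABCA1 element, chr9:104928202-104928231, minus strand: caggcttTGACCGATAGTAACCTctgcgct
ABCA1 upstream, chr9:104928238-104928405, minus strand: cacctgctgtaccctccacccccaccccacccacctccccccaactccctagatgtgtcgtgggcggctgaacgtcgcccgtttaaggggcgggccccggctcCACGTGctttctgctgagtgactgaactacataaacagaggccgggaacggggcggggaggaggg
MYLIP upstream, chr6:16128836-16129085, plus strand: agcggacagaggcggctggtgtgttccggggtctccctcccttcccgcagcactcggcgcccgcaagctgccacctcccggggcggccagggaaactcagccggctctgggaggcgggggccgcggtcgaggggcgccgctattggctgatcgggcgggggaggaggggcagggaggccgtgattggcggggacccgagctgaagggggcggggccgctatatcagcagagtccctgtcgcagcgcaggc

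The targets LPCAT3 and SMPDL3A rose by less than MYLIP. LPCAT3, an acyltransferase that places polyunsaturated chains in phospholipids (ENSG00000111684.10, chromosome 12, 6976186 to 7018510), stood at 63.7, 64.6 and 63.1 CPM in the siBRG1 libraries, against 44.5, 45.5 and 44.6 CPM in the control libraries. The groups lay well apart, with little spread within either (log2 fold change 0.51 ± 0.0528 SE at an adjusted p of 1.18e-09). Of its exon length 65.6% overlaps EMG1 on the opposite strand, and EMG1 stood at 22.6, 23.4 and 21.0 CPM in siBRG1 libraries, against 25.6, 24.0 and 25.9 CPM in control libraries. The unstranded counts of LPCAT3 came to 28.4% of its sense counts in siBRG1 and 33.0% in control; with them the log2 fold change was 0.35 (adjusted p = 0.00194). After removal of GC and length trends it was 0.28.

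SMPDL3A, a phosphodiesterase related to acid sphingomyelinase (ENSG00000172594.12, chromosome 6, 122789049 to 122809720), stood at 11.6, 10.3 and 10.9 CPM in the siBRG1 libraries, against 8.08, 6.93 and 7.33 CPM in the control libraries. Every siBRG1 library was above every control library, by a narrower margin in CPM than for the other 6 genes that rose (log2 fold change 0.55 ± 0.117 SE at an adjusted p of 0.000121). Relatives of LPCAT3 and SMPDL3A were counted beside them. Of 8 such genes, all tested, 4 rose, 2 fell and 2 did not pass, with a median log2 fold change of 0.25. Thus 75% were called, near the 72.6% of all genes tested. SMPDL3B, a close relative of SMPDL3A, rose (log2 fold change 2.14, SE 0.224), at 3.78, 6.27 and 4.94 CPM in siBRG1 libraries, against 1.19, 1.07 and 1.12 CPM in control libraries. LPCAT4 and LPCAT2 rose by log2 fold changes of 0.77 and 0.53, while MBOAT2, a membrane-bound acyltransferase of the same family as LPCAT3, fell (log2 fold change −0.86, SE 0.0436).

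Of 19 other receptor targets listed, 12 were tested, of which 7 rose, 2 fell and 3 did not pass, with a median log2 fold change of 0.50. Those called made up 75%, near the 72.6% of all genes tested. APOE, which encodes the apolipoprotein that accepts cholesterol outside the cell, stood at 10.7, 12.8 and 10.6 CPM in siBRG1 libraries, against 1.81, 1.71 and 1.44 CPM in control libraries. All siBRG1 libraries were far above all control libraries, a 6.82-fold difference (log2 fold change 2.77 ± 0.159 SE at an adjusted p of 3.25e-15). SCD, a fatty acid desaturase gene, and FASN, the fatty acid synthase gene, rose by log2 fold changes of 3.20 and 1.76 (SE 0.0533 and 0.0428). SREBF1, which encodes SREBP1, rose by 0.52 (SE 0.0510). These lipid synthesis genes are known to answer to SREBP as well as to the liver X receptors. MERTK, an engulfment receptor gene named because the count was 2, was among those that fell (log2 fold change −0.41, adjusted p = 0.0279).

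Liver X receptor genes and APOE are high in macrophages, so markers of other cells were read beside them. Of 10 macrophage and leukocyte markers 2 were tested and 1, CD14, rose; CD163, TYROBP and AIF1 had 0 counts in all 6 libraries. The summed level of that list was 9.90 to 10.7 CPM in siBRG1 and 4.28 to 5.64 CPM in control, most of it CD14, at 9.38 ± 0.443 CPM in siBRG1 and 4.08 ± 0.561 CPM in control (SD, n = 3 each). The other marker tested, PTPRC (CD45), stood at 0.580 ± 0.247 CPM in siBRG1 and 0.560 ± 0.177 CPM in control and did not pass (adjusted p = 0.930). Of 8 stromal fibroblast markers 7 rose and 1 fell, and their summed level was 4745 to 5068 CPM in siBRG1 and 2623 to 2809 CPM in control, with none at 0. ACTA2, 1 of the 7, had 30, 21 and 36 counts in siBRG1 libraries and 12, 26 and 11 counts in control libraries. Its control libraries alone would not have passed the filter on low counts, so its call says little. Among all genes tested 36.1% were called higher and 36.5% lower. Of 6 endothelial markers 1 rose and 1 fell (summed level 2.59 to 4.08 CPM in siBRG1 and 2.51 to 2.95 CPM in control, ERG at 0). The one that rose, CDH5, had 34, 25 and 20 counts in siBRG1 libraries and 28, 23 and 15 counts in control libraries. Its control libraries alone would not have passed that filter either. Of 7 steroidogenic and hepatic markers 1, STAR, was tested and called higher, and HSD3B2, ALB, APOA2 and APOB were at 0. The summed level of that list was 0.235 to 1.24 CPM in siBRG1 and 0.306 to 0.453 CPM in control. STAR had 17, 3 and 11 counts in siBRG1 libraries and 20, 7 and 10 counts in control libraries. Its CPM overlapped between groups, so its call says little. Of 8 epithelial markers 4 rose and 2, KRT7 and KRT19, fell, and their summed level was 3479.6 to 3734 CPM in siBRG1 and 3936 to 4021 CPM in control. EPCAM, 1 of the 4, had 18, 22 and 23 counts in siBRG1 libraries and 17, 7 and 9 counts in control libraries, and passed the filter on low counts through its siBRG1 libraries alone. The part of the fibroblast and epithelial markers in the results was not tested, and in such bulk RNA fewer cells of a type and less RNA per cell cannot be told apart.

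Genes of oxysterol handling, which sets the supply of receptor ligand, were either too scarce to test or higher. Of 10 listed 5 were tested and all 5 rose, where 36.1% of all genes tested were called higher. CH25H, which makes 25-hydroxycholesterol, had 0 counts in all 6 libraries. HSD3B7, an enzyme of bile acid synthesis that acts on oxysterols, had 13.7 ± 1.93 CPM in siBRG1 and 4.06 ± 0.227 CPM in control (SD, n = 3 each; log2 fold change 1.74 ± 0.130 SE at an adjusted p of 1.07e-12). With unstranded counts its log2 fold change was 0.77 (adjusted p = 0.00419). EBP, which encodes a late enzyme of cholesterol synthesis, rose too (log2 fold change 1.41, SE 0.0451). Also among those that rose, and named because the count was 5, were CYP27A1, the sterol 27-hydroxylase gene, and SULT2B1, a sterol sulfotransferase gene. CYP27A1 had 72, 78 and 59 counts in siBRG1 libraries and 37, 19 and 24 counts in control libraries (log2 fold change 3.09, SE 0.244), and SULT2B1 had 15, 8 and 18 counts in siBRG1 libraries and 7, 5 and 4 counts in control libraries (log2 fold change 3.02, SE 0.495). SULT2B1 passed the filter on low counts through its siBRG1 libraries alone, so its call says little.

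Both genes of lysosomal cholesterol export rose. NPC1, the membrane protein that carries cholesterol out through the lysosomal membrane (ENSG00000141458.12, chromosome 18, 23506184 to 23586898), stood at 124, 125 and 132 CPM in the siBRG1 libraries, against 64.3, 63.8 and 66.8 CPM in the control libraries. Levels in siBRG1 were nearly doubled in every library, a 1.96-fold difference (log2 fold change 0.97 ± 0.0460 SE at an adjusted p of 3.97e-17). NPC2, the soluble protein that hands cholesterol to NPC1 (ENSG00000119655.10, chromosome 14, 74476192 to 74494177), stood at 91.6, 104 and 91.7 CPM in the siBRG1 libraries, against 64.1, 61.7 and 59.7 CPM in the control libraries. It rose in every siBRG1 library with replicate 2 highest (log2 fold change 0.63 ± 0.0529 SE at an adjusted p of 1.47e-11). The ratio of NPC1 to NPC2 counts was 1.36, 1.21 and 1.44 in siBRG1 libraries, against 1.00, 1.04 and 1.12 in control libraries. These did not overlap (1.27-fold, p = 0.1 in the same exact test).

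Other genes listed for sterol transfer and efflux rose more often than they fell. Of 22 listed 20 were tested, of which 12 rose, 2 fell and 6 did not pass, with a median log2 fold change of 0.24. Thus 70% were called, near the 72.6% of all genes tested, where 36.1% were called higher and 36.5% lower. STARD4, a soluble sterol carrier gene, had 141 ± 10.1 CPM in siBRG1 and 51.2 ± 4.33 CPM in control (SD, n = 3 each; log2 fold change 1.46 ± 0.0569 SE at an adjusted p of 4.03e-19). GRAMD1C, which encodes a sterol transporter of endoplasmic reticulum contact sites, and TSPO, an outer mitochondrial membrane protein gene, rose by log2 fold changes of 1.75 and 1.04 (SE 0.164 and 0.0703). CAV1, which encodes the coat protein of caveolae, fell, at 344 ± 11.7 CPM in siBRG1 and 519 ± 13.2 CPM in control (log2 fold change −0.59, SE 0.0379). OSBPL8, named because the count was 2, was the other that fell. SCARB1, the HDL receptor gene, stood at 56.0, 50.6 and 52.8 CPM in siBRG1 libraries, against 53.3, 60.0 and 58.3 CPM in control libraries. It overlapped and did not pass (log2 fold change −0.10 ± 0.0588 SE at an adjusted p of 0.115), but was called lower after removal of GC and length trends (−0.29, adjusted p = 4.77e-05), with no filter (−0.15, adjusted p = 0.0274), with protein-coding genes alone (−0.15, adjusted p = 0.0277) and without control replicate 1 (−0.17, adjusted p = 0.0190).

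The storage enzyme fell. SOAT1, which joins cholesterol to a fatty acid for storage in droplets (ENSG00000057252.12, chromosome 1, 179293714 to 179358680), stood at 64.0, 60.1 and 61.6 CPM in the siBRG1 libraries, against 130.5, 131.9 and 129.7 CPM in the control libraries. The libraries of each group lay close together and the groups far apart. The log2 fold change was −1.08 ± 0.0467 SE at an adjusted p of 5.12e-18, a 2.11-fold fall. SOAT2, the isoenzyme of liver and intestine, was scarce, with 0.589 ± 0.138 CPM in siBRG1 and 1.14 ± 0.230 CPM in control (SD, n = 3 each; log2 fold change −0.96 at an adjusted p of 0.0244). Its call was lost with DESeq2 (adjusted p = 0.0534) and when siBRG1 replicate 1 or control replicate 1 was left out (adjusted p = 0.0999 and 0.0969).

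Other genes of ester storage and hydrolysis split. Of 15 listed 12 were tested, of which 3 rose, 3 fell and 6 did not pass, with a median log2 fold change of −0.02. Thus 50% were called, beside 72.6% of all genes tested. LIPA, the lysosomal acid lipase gene, whose enzyme frees cholesterol from esters taken up in lipoproteins, stood at 164, 152 and 163 CPM in siBRG1 libraries, against 93.9, 85.0 and 89.5 CPM in control libraries. It rose (log2 fold change 0.83 ± 0.0461 SE at an adjusted p of 1.30e-15). NCEH1, a neutral hydrolase of stored cholesterol esters, had 79.3 ± 2.47 CPM in siBRG1 and 149 ± 5.65 CPM in control and fell (log2 fold change −0.91 ± 0.0462 SE at an adjusted p of 2.16e-16). ABHD5, a coactivator of triglyceride lipase on droplets, fell too (log2 fold change −1.14, SE 0.0709). The droplet coat genes differed from each other: PLIN3 rose (log2 fold change 0.46, SE 0.0388), and PLIN2 stood at 37.8 ± 0.282 CPM in siBRG1 and 38.0 ± 1.59 CPM in control (log2 fold change −0.01, adjusted p = 0.908), but was called lower once GC and length trends were taken out (−0.14, adjusted p = 0.0396).

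Beside these genes, all 9 genes listed for the SREBP2 arm rose, where 36.1% of all genes tested were called higher. SREBF2 had 359.7 ± 13.5 CPM in siBRG1 and 108 ± 2.68 CPM in control (SD, n = 3 each; log2 fold change 1.74, SE 0.0400). HMGCS1, INSIG1 and IDI1, genes of sterol synthesis and its feedback, had log2 fold changes of 3.16, 3.08 and 2.81. Over the 97 genes of all lists apart from the 10, 79 were tested and 42 rose, 16 fell and 21 did not pass, so that 73.4% were called, near the 72.6% of all genes. After removal of GC and length trends 37 were higher and 23 lower.

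**Figure D3:**
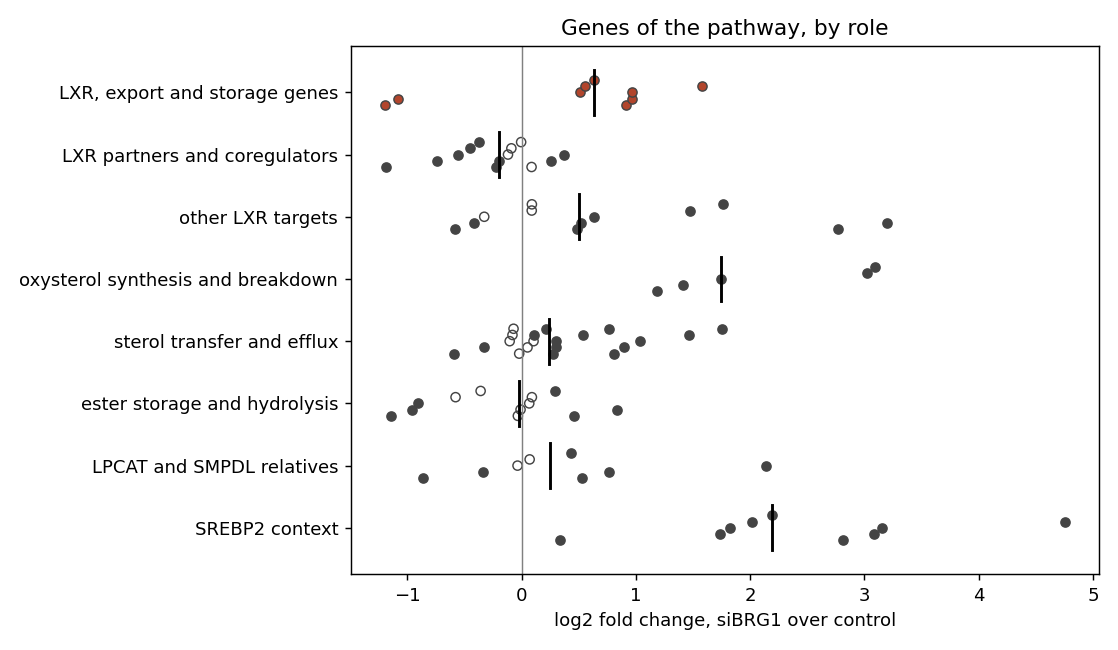
Log2 fold change, siBRG1 over control, of every tested gene of each list; filled points passed at adjusted p under 0.05, open points did not, and the black bar is the list's median. The median is −0.19 for receptor partners and coregulators, all SREBP2 genes lie above 0, and the 10 genes of this account (9 tested) span −1.20 to 1.58.

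Per kilobase of exon, the order of the 10 genes changed between the groups. In siBRG1 it was NPC2 (34.8 ± 2.59 CPM per kb), NR1H2, LPCAT3, NPC1, SOAT1, MYLIP, SMPDL3A, NR1H3, ABCA1 and ABCG1 (0.0296 ± 0.0199 CPM per kb). In control it was NPC2 (22.5 ± 0.801 CPM per kb), SOAT1, NR1H2, LPCAT3, NPC1, ABCA1, SMPDL3A, MYLIP, NR1H3 and ABCG1 (0.0377 ± 0.0187 CPM per kb). The single pair of neighbours whose libraries overlapped was MYLIP and SMPDL3A, in each group. SOAT1 stood at 8.84 ± 0.287 CPM per kb in siBRG1, in place 5, and at 18.7 ± 0.157 CPM per kb in control, in place 2. ABCA1 stood at 1.97 ± 0.282 CPM per kb in siBRG1, under NR1H3, and at 4.52 ± 0.330 CPM per kb in control, over it.

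**Figure D4:**
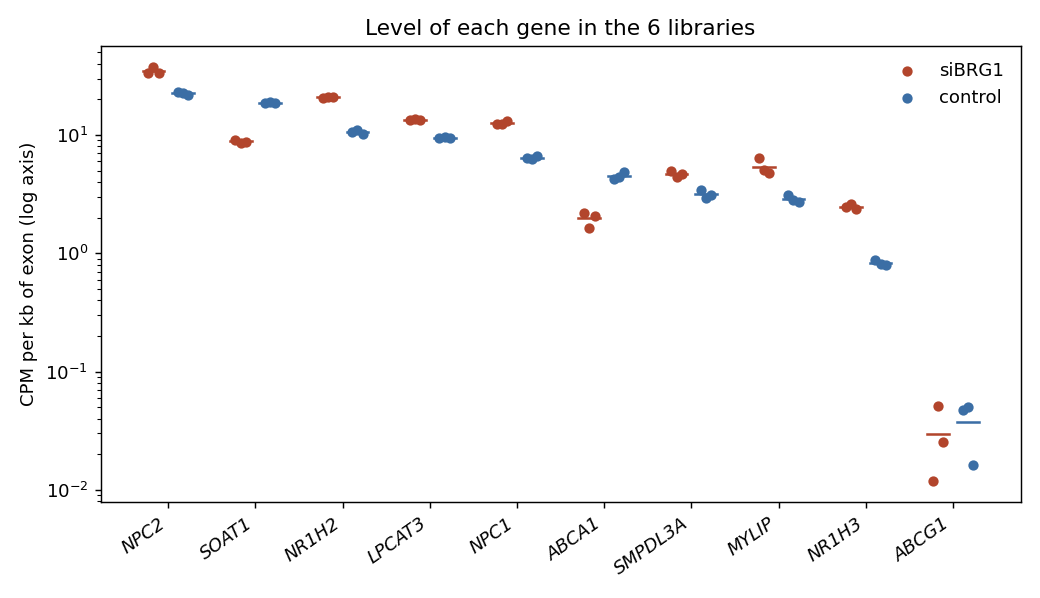
Level per kilobase of exon (CPM per kb, log axis) of each gene, ordered by the control mean; points are libraries, siBRG1 at the left and control at the right, and lines are means (n = 3). SOAT1 and ABCA1 lie lower in siBRG1, the other tested genes lie higher, and ABCG1 lies lowest in both groups.

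The authors' deposited table, which comes from their own comparison of the groups, gave the same direction for each of the 9 tested genes, from −1.22 for ABCA1 and −1.10 for SOAT1 to 1.56 for NR1H3 in log2 fold change, with adjusted p of at most 2.06e-05 (SMPDL3A). For ABCG1 the authors' deposited table gave −0.40 with an adjusted p of 0.691.

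**Figure D5:**
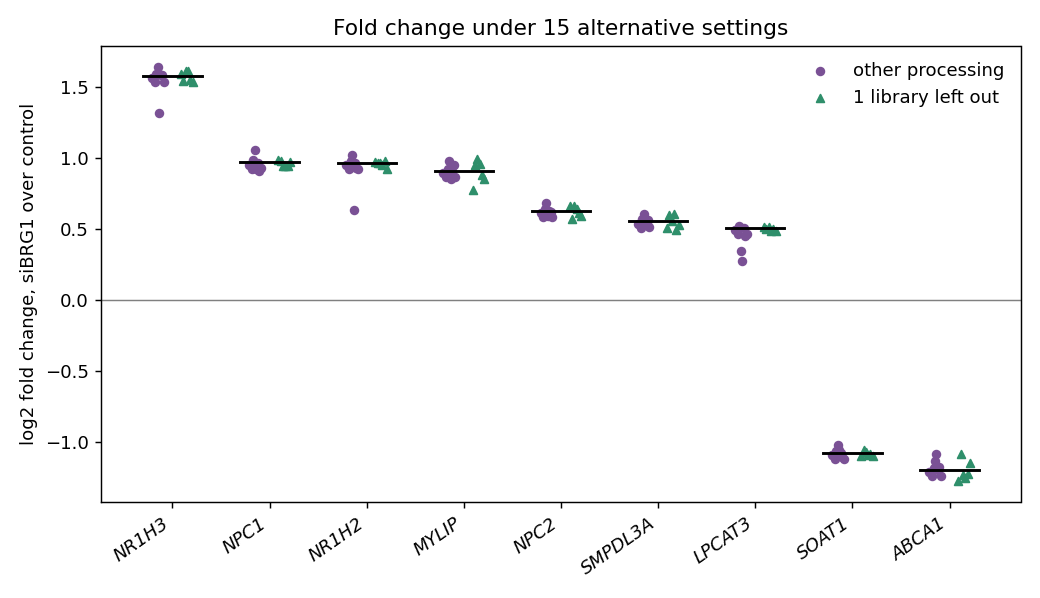
Log2 fold change, siBRG1 over control, of the 9 tested genes; black lines are the values given above, circles 9 other ways of processing and triangles 6 fits that each leave out 1 library. No gene changes sign, and the widest shifts are those of NR1H2 (0.63) and NR1H3 (1.32) with GC and length trends removed.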

How the data were processed

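For each of 6 libraries the authors deposited raw gene counts, unstranded and for each strand. Build GRCh38.p12 and the tools Trim Galore, cutadapt, FastQC, DESeq2 and STAR are named, with no versions, in the submitters' processing notes, and their annotation release was not given in the sources used here. The authors also deposited a table of log2 fold changes, their standard errors and adjusted p-values, per the file headers.

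The strand with the larger total was used. Symbols and coordinates came from GENCODE 29 (58216 of 58336 identifiers matched). Lines that name no gene (27.7% to 30.3% of reads in siBRG1, 28.5% to 29.5% in control) were left out. Groups were compared with edgeR 4.0.16 (R 4.3.3): TMM, filterByExpr, robust quasi-likelihood fits on the group, two-sided. A standard error is the log2 fold change over the square root of F. The fit was also run on simulated counts of 15475 genes, of which 60, 72 and 68 were changed 1.25-, 1.50- and 2.00-fold. Of these 81.67%, 90.28% and 98.53% were recovered. Far fewer genes differed there than were called in the data, so the run does not test the calls made here. Between libraries of a group chi-square was 2.64 to 4.55 per degree of freedom, beyond sampling noise, and none was merged.

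The 10 genes and the lists were chosen with earlier results of these data known. Of each list the text names up to 4 called genes averaging 50 or more counts, by size of change and starting with the top in each direction, beside RXRA, RXRB, APOE, SREBF1, SREBF2, SCARB1, LIPA, NCEH1, PLIN2 and SOAT2; some genes that this rule names are not reported here. Alternatives were DESeq2 1.42.0, its size factors, no or a stricter filter (50 counts in 3 libraries), unstranded counts, GC and length trends removed, a replicate block, thinned control counts, protein-coding genes alone, and each library left out.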

Additional observations from a re-analysis of the deposited data

Results flagged for a closer look

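Reads on the strand opposite to 2 of the genes were more frequent in every siBRG1 library than in any control library, in a column that the comparisons do not use. Opposite NR1H3 they stood at 5.82 ± 1.68 CPM in siBRG1 and 3.23 ± 0.112 CPM in control, and opposite NPC2 at 11.2 ± 1.13 CPM in siBRG1 and 5.73 ± 0.245 CPM in control (SD, n = 3 each). Opposite NPC1 and LPCAT3 such reads were less frequent in every siBRG1 library than in any control library. They stood at 7.72 ± 0.275 and 15.9 ± 1.26 CPM in siBRG1, against 10.5 ± 0.569 and 18.4 ± 0.973 CPM in control. How many of all genes differ in this way on the opposite strand was not counted. The exons of NR1H3 overlap those of ACP2 by 189 bases and the exons of NPC2 overlap those of ISCA2 by 103 bases, each on the opposite strand. ACP2 stood at 38.0 ± 2.75 CPM in siBRG1 and 33.7 ± 0.881 CPM in control, and ISCA2 at 43.8 ± 2.58 CPM in siBRG1 and 22.7 ± 1.17 CPM in control. As a share of the stranded counts of NR1H3 the opposite strand held 25.1% to 40.4% in siBRG1 and 45.5% to 47.3% in control, and of NPC2 9.88% to 10.8% in siBRG1 and 8.16% to 9.11% in control. The part of ACP2 and ISCA2 in these reads was not tested.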

How the results depend on the processing

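Under all 15 alternatives 7 of the 10 genes were called higher and 2 lower, and their directions held. Log2 fold changes over these alternatives ran from 1.32 to 1.65 for NR1H3, 0.63 to 1.03 for NR1H2, −1.28 to −1.08 for ABCA1, 0.78 to 1.00 for MYLIP, 0.28 to 0.52 for LPCAT3, 0.49 to 0.61 for SMPDL3A, 0.91 to 1.06 for NPC1, 0.57 to 0.69 for NPC2 and −1.12 to −1.02 for SOAT1. The largest adjusted p among them was 0.00194, for LPCAT3 with unstranded counts. ABCG1 could be tested only with no filter or with an siBRG1 library left out, where its log2 fold change was −1.01 to 0.01 and the smallest adjusted p was 0.362. All genes called numbered 9688 to 12541. Same-numbered libraries of the groups did not deviate together (r = −0.0126, 0.0220 and 0.00898), so the numbers do not pair them; with a replicate block the same 7 and 2 were called, 42 and 16 of the other pathway genes, and 11194 genes in all. The log2 difference in the NR1H3 to NR1H2 ratio was 0.62, and 0.58 to 0.66 with each library left out; that in the NPC1 to NPC2 ratio was 0.34, and 0.28 to 0.41. The cause of the smaller receptor differences with GC and length trends removed was not tested. Depth limits ABCG1, with 7 counts in all of siBRG1 and 30 in all of control.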
